A study of Mus musculus with 6 samples.

Results

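Potassium channel genes were examined in bulk RNA of the mouse subventricular zone (SVZ), where neural stem cells line the lateral ventricle. They were taken as every gene with a symbol starting Kcn except Kcne2 and Kcnj13, which the selection set aside, and they numbered 91 of the 18614 genes with a row. All 91 encode proteins. By symbol they fell into 40 voltage-gated pore genes, 12 accessory genes of voltage-gated channels, 14 inward rectifiers, 13 two-pore channels and 12 genes of the calcium-activated family. The last class holds the sodium-activated Kcnt channels and Kcnu1 because of their family.

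The libraries were 3 from Zhx2+/+ mice (WT) and 3 from mice titled as Zhx2Δ/Δ knockouts (KO), numbered 1 to 3 in each group. The labels give no age, sex, strain or way of deletion, nor do they say whether tissue was pooled or whether each library came from its own animal, so p-values measure the spread between libraries. The genotype tags of KO 2 and KO 3 name ZHX3 and ZHX4 in place of ZHX2. Zhx2 itself was at 39.8, 40.5 and 38.2 CPM (counts scaled to library size) in WT 1 to 3 and at 67.1, 57.8 and 56.3 CPM in KO 1 to 3. Its transcript was thus higher, not lower, under the KO label, and the latter are called KO-labelled libraries. As the way of deletion is not given, transcript level alone does not settle the genotype. Libraries held between 17037152 and 17685906 estimated counts, and the floor of 3 counts used for an unseen gene stood for 0.170 to 0.176 CPM by counting error alone. The summed level of 20 markers of choroid plexus, which makes cerebrospinal fluid, was 23582.0, 18466.8 and 5634.7 CPM in WT 1 to 3 and between 439 and 669 CPM in KO-labelled libraries, and the groups did not overlap in any of the 20. That of 18 markers of striatal projection neurons was 1189.0, 12926.6 and 4126.0 CPM in WT 1 to 3 and 6085.0, 7507.4 and 7832.7 CPM in KO 1 to 3. No marker of either list was at 0 in every library. The part of tissue content in the differences below was not tested, and in bulk RNA fewer cells of a type and less RNA per cell cannot be told apart.

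Potassium channels let potassium leave or enter a cell and so set its resting voltage and end its electrical impulses. Voltage-gated channels open on depolarization, inward rectifiers and two-pore channels hold the resting voltage, and calcium-activated channels couple calcium entry to hyperpolarization. In the ventricular wall and the striatum beside it they are known from neurons, from astrocytes that clear extracellular potassium, and from the contractile cells of vessels.

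The highest levels per transcript length were those of accessory genes and of an inward rectifier of astrocytes. On the FPKM scale (fragments scaled for transcript length and library size, summed over a gene's transcripts), 34 of the 91 genes had a mean of at least 10 over the 6 libraries, 34 had 1 to 10, and 23 were under 1. Kcnip2, a calcium-binding subunit of A-type channels, led with 108 ± 28.2 FPKM (SD over 6 libraries). Kcnab2, a beta subunit of Shaker-type channels, followed with 84.0 ± 15.7 FPKM. Kcnj10, the inward rectifier of astrocytes, was at 62.1 ± 7.84 FPKM. These ranges overlapped from each gene to the next, with Kcnip2 between 71.1 and 141 FPKM, Kcnab2 between 55.0 and 97.6 FPKM and Kcnj10 between 53.7 and 72.3 FPKM. Next came Kcnab1, another beta subunit, at 60.4 ± 28.9 FPKM. Kcnj4, an inward rectifier of forebrain neurons, was at 48.6 ± 25.4 FPKM, the two-pore channel Kcnk1 at 46.7 ± 6.70 FPKM and Kcnmb4, the neuronal beta subunit of the large-conductance calcium-activated (BK) channel, at 28.9 ± 10.7 FPKM. The wide SDs of Kcnab1 and Kcnj4 came from the WT libraries and are described below.

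Levels were compared between KO-labelled and WT libraries with edgeR's quasi-likelihood test, in which 81 of the 91 genes passed the filter on low counts. No potassium channel gene passed an adjusted p of 0.05, as was so for all genes (0.00% of 15126 called). The lowest adjusted p among them was 0.429. Limma-voom also called 0 channel genes and 0.00% of all genes, and DESeq2 called 0 channel genes against 2.06% of all genes. These counts leave out Kcne2 and Kcnj13, which are among the choroid plexus markers. DESeq2 called both, with log2 fold changes of -6.94 and -5.82 (DESeq2 adjusted p 4.77e-27 and 8.03e-07). At an unadjusted p under 0.05, 5 channel genes stood out, 4 higher and 1 lower in KO-labelled libraries. That is 6.17% of those tested, against 9.07% of all genes (2.68% higher and 6.39% lower). The groups did not overlap in 7 channel genes, 8.64% of those tested against 16.7% of all genes; 5 of them were higher (8.00% of all genes) and 2 lower (8.74%). All 81 log2 fold changes lay between -0.69 and 0.67, with a median of 0.056 against 0.018 for all genes.

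**Figure D1:**
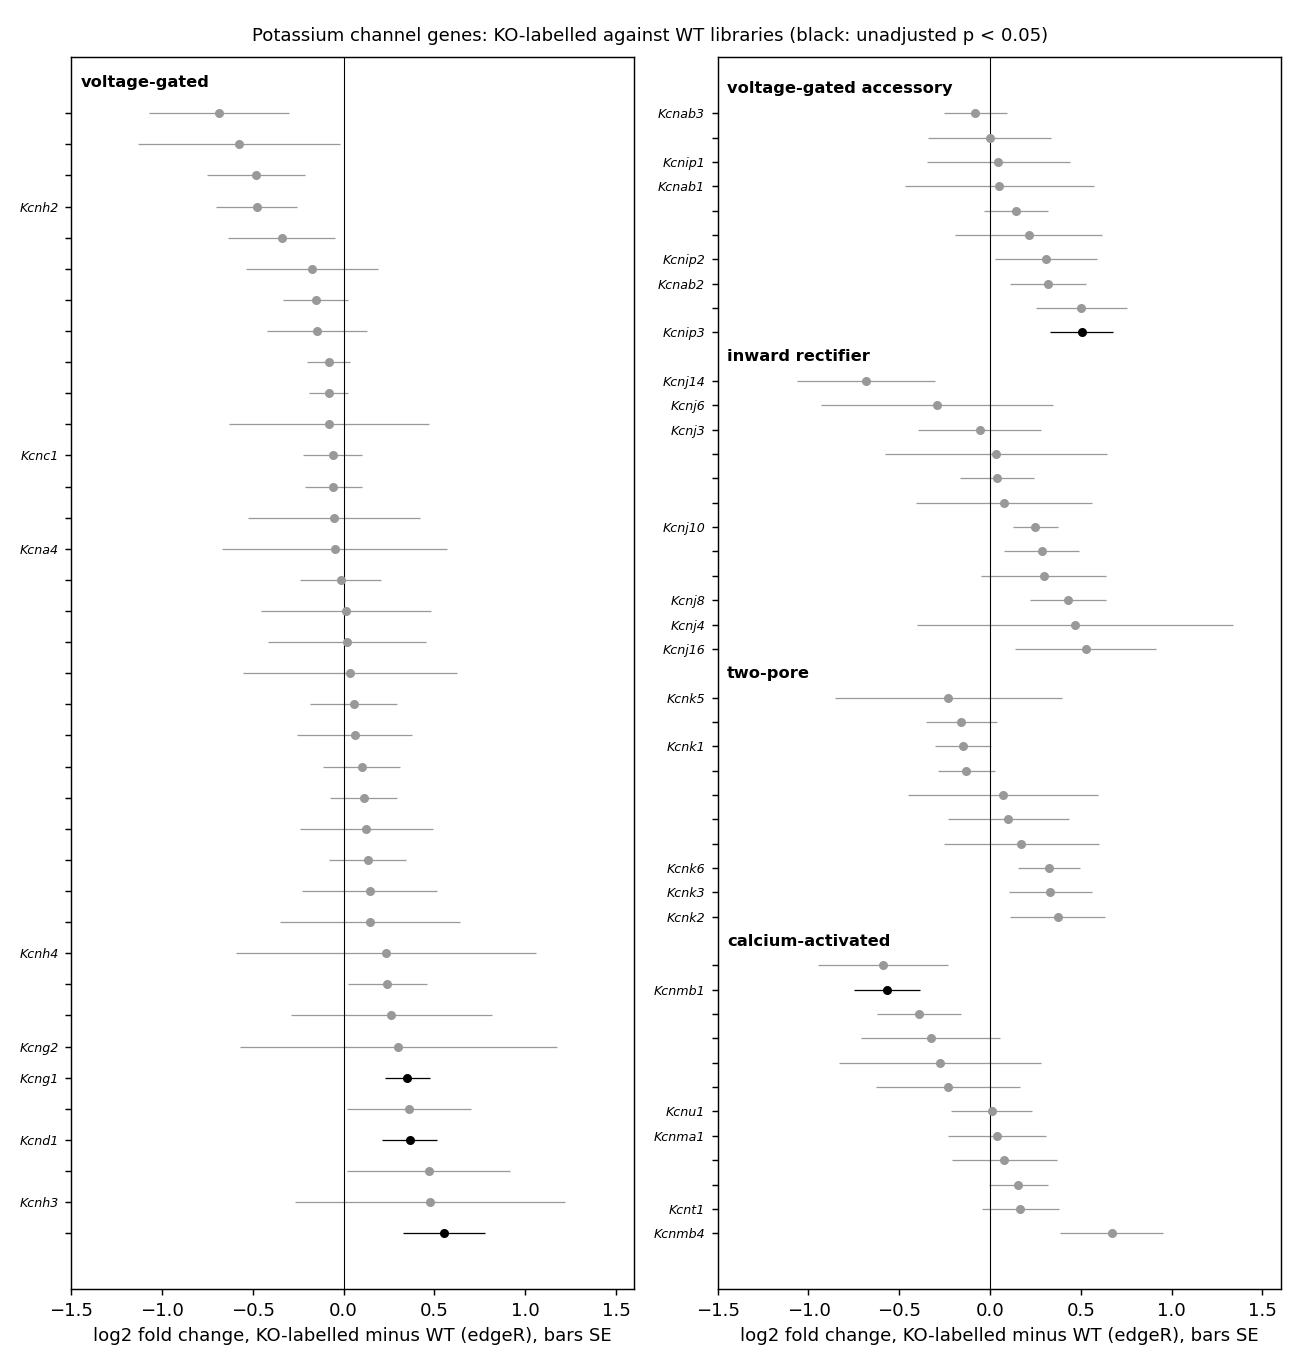
Log2 fold change of KO-labelled against WT libraries (x axis, edgeR) for each of the 81 potassium channel genes tested, by class, with bars of 1 standard error; black points have an unadjusted p under 0.05 and names are given for genes described in the text. All points lie between -0.69 and 0.67, and 5 are black.

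Among voltage-gated pore genes, 21 had a positive and 16 a negative log2 fold change, with a median of 0.035, which was -0.18 without WT 1. Of the pore genes, 3 had an unadjusted p under 0.05, all in the higher direction, and Kcng1 and Kcnd1 are given here. Kcng1, a subunit that is silent alone and alters the channels it joins, was at 35.9, 33.0 and 36.2 CPM in WT 1 to 3 and at 42.8, 51.7 and 39.6 CPM in KO 1 to 3. The WT libraries lay close together and below each KO-labelled library, and the log2 fold change was 0.35 (SE 0.13, adjusted p = 0.489 in edgeR). Kcnd1, a pore subunit of A-type channels, was at 9.96, 13.0 and 11.0 CPM in the WT libraries, against 13.1, 14.8 and 15.8 CPM in the KO-labelled ones. The highest WT and the lowest KO-labelled library were nearly level, at 13.02 and 13.08 CPM, and the log2 fold change was 0.36 (SE 0.15, adjusted p = 0.544). The exact permutation p of both genes was 0.1, the smallest that 3 libraries against 3 allow (two-sided).

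In the other direction the smallest p among voltage-gated pores was that of Kcnh2, the pore of the ERG channel that repolarizes heart muscle and some neurons. It was at 101, 71.9 and 67.6 CPM in WT 1 to 3 and at 42.7, 63.3 and 66.4 CPM in KO 1 to 3. The groups did not overlap, but WT 3 and KO 3 differed little, and the log2 fold change of -0.48 (SE 0.22) had an adjusted p of 0.587 in edgeR. It was -0.28 without WT 1 and -0.31 without KO 1. Kcnh2 overlaps Gm15589, and Kcnip3 below overlaps Gm35478. Kcnc1, a pore gene of fast-spiking neurons, had a log2 fold change of -0.059 (SE 0.16), which was 0.088 without KO 1. The pores that were not tested, Kcna7, Kcna10 and Kcnv2, stayed at or under 0.487 CPM. Kcnv2, a silent subunit named here after its values were seen, had 9, 8 and 7 counts over the WT libraries, against 0, 1 and 2 counts over the KO-labelled ones, and with no filter its adjusted p in edgeR was 0.398.

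Accessory genes of voltage-gated channels had 8 positive and 2 negative log2 fold changes among 10 tested, with a median of 0.18. Kcnip3 encodes a calcium sensor that joins A-type channels and is also known as the transcriptional repressor DREAM. It was at 74.8, 103 and 110 CPM in WT 1 to 3 and at 151, 138 and 119 CPM in KO 1 to 3. Every KO-labelled library lay above every WT library, with WT 1 the lowest of all, and the log2 fold change was 0.50 (SE 0.17, adjusted p = 0.464 in edgeR). Over the 15 alternatives its adjusted p ranged from 0.279 to 0.838. One of its transcripts held 81.1% of its counts, at 1347.34, 1157.78 and 1489.86 estimated counts over the WT libraries, against 2033.02, 1852.21 and 1832.8 over the KO-labelled ones. It showed the same order of groups as the gene, but was lowest in WT 2. The groups overlapped in the next transcript, with 17.85% of the counts. That was at 0, 521.7 and 392.6 over the WT libraries, against 520.08, 523.94 and 179.83 over the KO-labelled ones. In the other direction Kcnab3, a beta subunit, had a log2 fold change of -0.082 (SE 0.17), which was 0.073 without KO 1.

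The abundant accessory genes were spread widely in WT. Kcnip2 was at 159, 329 and 197 CPM in WT 1 to 3 and at 239, 330 and 278 CPM in KO 1 to 3. Kcnab2 was at 191, 329 and 292 CPM in the WT libraries, against 358, 350 and 304 CPM in the KO-labelled ones; it overlaps Nphp4, and reads of overlapping genes can be split only as the counting allowed. Kcnab1 was at 82.2, 370 and 134 CPM in the WT libraries, against 183, 199 and 226 CPM in the KO-labelled ones. In each of these genes WT 1 was the lowest of the 6 libraries, and all KO-labelled libraries of Kcnab1 lay inside the WT range. Their log2 fold changes were 0.31 (SE 0.28), 0.32 (SE 0.21) and 0.051 (SE 0.52), and leaving out 1 library at a time moved that of Kcnab1 between -0.32 and 0.89. Without WT 1 the values of Kcnip2 and Kcnab2 were 0.10 and 0.12, and without WT 2 they were 0.66 and 0.47. Without KO 2 that of Kcnip2 was 0.18. Kcne1 and Kcne3 were not tested.

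**Figure D2:**
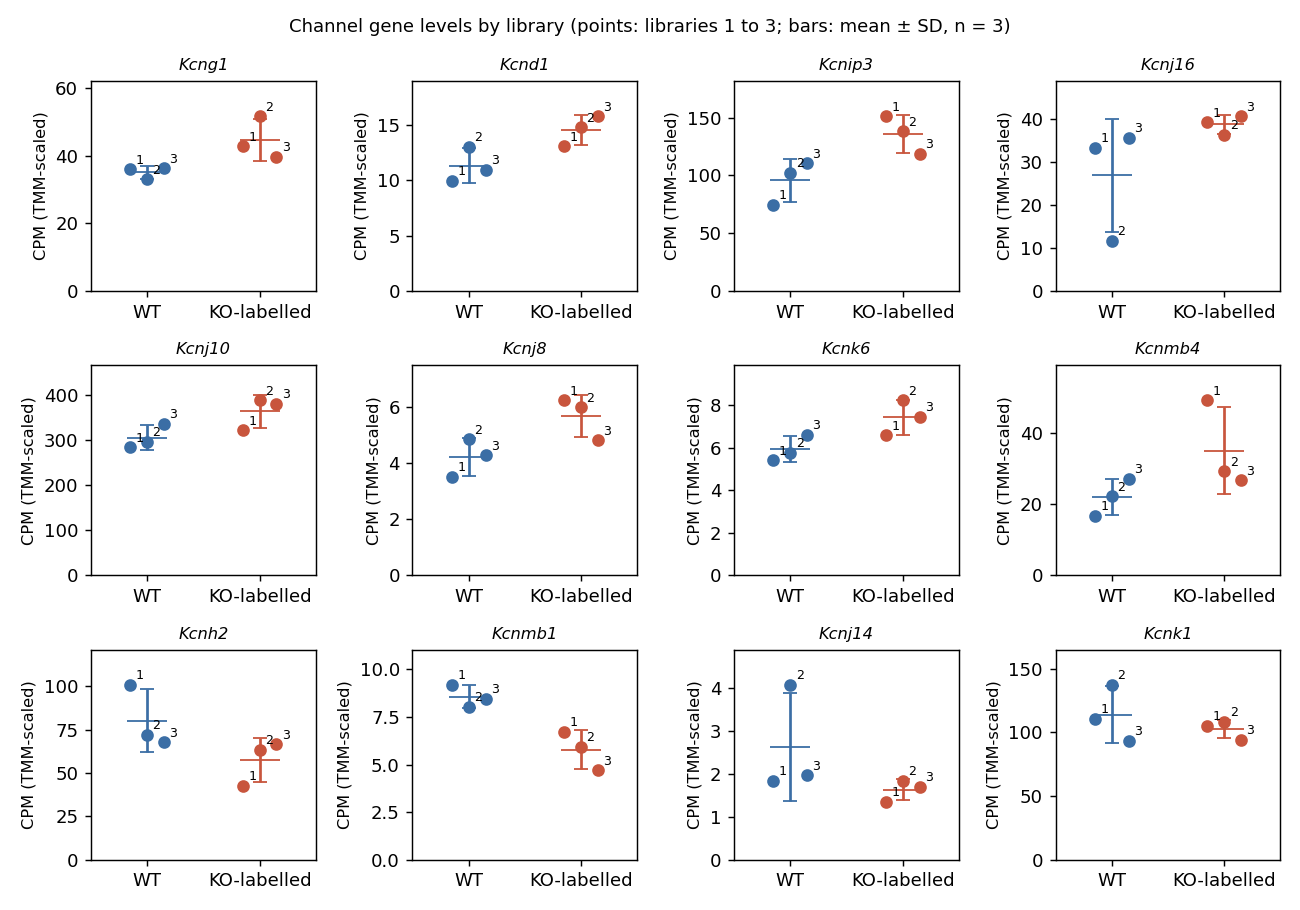
TMM-scaled CPM (y axis, from 0) of 12 channel genes in WT (blue) and KO-labelled (red) libraries; points are libraries with their number, and bars are mean ± SD, n = 3. Kcng1, Kcnd1, Kcnip3 and Kcnj16 lie higher and Kcnh2 and Kcnmb1 lower in each KO-labelled library than in any WT library, and the groups of the other 6 genes overlap.

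Inward rectifier genes had 9 positive and 3 negative log2 fold changes among 12 tested, with a median of 0.16, and 0 had an unadjusted p under 0.05. Kcnj10, whose channel takes up potassium into astrocytes, was at 284, 295 and 335 CPM in WT 1 to 3 and at 321, 387 and 380 CPM in KO 1 to 3. KO 1 lay inside the WT range and the other KO-labelled libraries above it, and the log2 fold change was 0.25 (SE 0.13, adjusted p = 0.611 in edgeR). Its channel partner Kcnj16 was at 33.3, 11.8 and 35.6 CPM in the WT libraries, against 39.3, 36.3 and 40.7 CPM in the KO-labelled ones. The groups of Kcnj16, named after its values were seen, did not overlap, but WT 2 alone lay far below the other 5 libraries, and the log2 fold change was 0.53 (SE 0.39, adjusted p = 0.728). The summed level of 14 astrocyte and quiescent stem cell markers was 4555.4, 4180.3 and 5460.2 CPM in the WT libraries, against 5649.0, 5092.9 and 5009.8 CPM in the KO-labelled ones. WT 2 had the lowest sum, little below WT 1, and members differed: Slc1a3 was lowest in WT 2 and Slc1a2 in WT 1. Kcnj10 was lowest in WT 1 too, and the part of these cells in either gene was not tested.

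Kcnj8, the pore of an ATP-sensitive channel known from pericytes and vascular muscle, had the smallest p of the class. It was at 3.52, 4.86 and 4.29 CPM in the WT libraries, against 6.24, 5.99 and 4.81 CPM in the KO-labelled ones. KO 3 fell just under WT 2, so the groups overlapped, and the log2 fold change was 0.43 (SE 0.21, adjusted p = 0.600 in edgeR). The summed level of 13 mural and fibroblast markers was between 338 and 380 CPM in WT and was 321, 618 and 365 CPM in KO 1 to 3, and its part in the Kcnj8 levels was not tested. Abcc9, the regulatory partner of Kcnj8, had a log2 fold change of -0.13 (SE 0.15). Kcnj14 had the smallest p in the lower direction, at 1.84, 4.08 and 1.97 CPM in the WT libraries, against 1.35, 1.84 and 1.70 CPM in the KO-labelled ones, where KO 2 and WT 1 were level. Kcnj3, a subunit of the G protein-gated rectifier of neurons, was at 84.8, 36.2 and 89.4 CPM in the WT libraries, against 79.3, 62.7 and 60.2 CPM in the KO-labelled ones, all inside the WT range. Kcnj1 and Kcnj15 were not tested.

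Two-pore channel genes had 6 positive and 4 negative log2 fold changes among 10 tested, with a median of 0.087, and 0 had an unadjusted p under 0.05 or groups that did not overlap. Kcnk2, a channel opened by stretch and lipids, was at 50.1, 108 and 85.2 CPM in WT 1 to 3 and at 99.7, 111 and 104 CPM in KO 1 to 3. WT 2 lay among the KO-labelled libraries and WT 1 well below them, and the log2 fold change was 0.37 (SE 0.26), which was 0.12 without WT 1 and 0.62 without WT 2. Kcnk1, a weakly conducting leak channel, was at 111, 138 and 93.6 CPM in the WT libraries, against 105, 108 and 94.3 CPM in the KO-labelled ones, with each of the latter inside the WT range. Kcnk3, an acid-sensitive leak channel, was at 15.6, 13.6 and 23.6 CPM in the WT libraries, against 26.0, 21.0 and 19.6 CPM in the KO-labelled ones. Kcnk6 had the smallest p of the class (log2 fold change 0.33, SE 0.17, adjusted p = 0.624 in edgeR), with WT 3 and KO 1 level at 6.61 and 6.60 CPM. The median of the class ranged from -0.17 without KO 1 to 0.30 without WT 3. Kcnk7, Kcnk15 and Kcnk18 were not tested.

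In the calcium-activated family 6 log2 fold changes were positive and 6 negative, with a median of -0.11, and all 12 genes were tested. Kcnmb1, the BK beta subunit known from smooth muscle, had the smallest p of any channel gene (unadjusted p = 0.0178, adjusted p = 0.429 in edgeR). It was at 9.20, 8.04 and 8.47 CPM in WT 1 to 3 and at 6.72, 5.93 and 4.70 CPM in KO 1 to 3. Each KO-labelled library lay below each WT library, and the log2 fold change was -0.57 (SE 0.18). The transcript with 89.1% of its counts overlapped between the groups. It was at 138.86, 101.74 and 146.45 estimated counts over the WT libraries, against 113.65, 102.52 and 62.72 over the KO-labelled ones. The other transcript was at 31.54, 32.67 and 0 over the WT libraries, against 0, 0 and 17.49. Kcnmb1 lies within the span of Kcnip1 on chromosome 11, and overlap of their exons was not examined. Where exons overlap, reads of such a pair cannot be told apart without the strand setting of the counting, which the labels do not give. Kcnip1 was at 62.6, 19.8 and 48.5 CPM in the WT libraries, against 38.1, 48.7 and 48.4 CPM in the KO-labelled ones, an order unlike that of Kcnmb1. The mural and fibroblast sums given above were below every WT library in KO 1, inside the WT range in KO 3 and above it in KO 2, and their part in the Kcnmb1 difference was not tested. Members of that list differed. The smooth muscle gene Acta2 was at 8.7, 19.7 and 24.5 CPM in the WT libraries, against 18.9, 74.5 and 29.5 CPM in the KO-labelled ones. Rgs5 stayed between 84.3 and 116 CPM in every library.

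Kcnmb4, the beta subunit of BK channels in neurons, was at 16.8, 22.2 and 27.1 CPM in the WT libraries, against 49.1, 29.3 and 26.7 CPM in the KO-labelled ones. KO 1 stood far above the rest and KO 3 inside the WT range, and the log2 fold change of 0.67 (SE 0.28, adjusted p = 0.553 in edgeR) was the largest upward value of any channel gene tested. Without KO 1 it was 0.35. Its locus overlaps 2 antisense transcripts, so the same limits on exons and strand apply. The BK pore gene Kcnma1 was at 168 ± 54.6 CPM in the WT libraries, against 173 ± 31.0 CPM in the KO-labelled ones, and Kcnt1, a sodium-activated channel, at 141 ± 31.1 and 159 ± 33.0 CPM (SD, n = 3). Both differences were smaller than the spread within either group.

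Partner genes of these channels were read from a separate list of 16 genes, which holds regulatory subunits and anchoring proteins among others. Of these 15 were tested, and 0 passed in edgeR or had an unadjusted p under 0.05; DESeq2 called none of them. Their median log2 fold change was 0.097, with 9 positive and 6 negative. Groups did not overlap in 2 of the 15, where the share over all genes was 16.7%. Lgi1, a secreted regulator of Shaker-type channels, was at 143, 154 and 154 CPM in the WT libraries, against 159, 173 and 171 CPM in the KO-labelled ones. Lrrc38, a gamma subunit of BK channels, was at 3.57, 5.10 and 3.83 CPM in the WT libraries, against 2.36, 2.59 and 3.46 CPM in the KO-labelled ones. Dpp6 and Dpp10, partners of A-type pores, had log2 fold changes of 0.097 (SE 0.17) and -0.071 (SE 0.23).

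The wider difference was among the WT libraries themselves. The highest of the 3 WT libraries exceeded the lowest by more than 2-fold in 35 of 81 channel genes (43.2%), against 14.9% of all genes with at least 3 counts in every library. Among the KO-labelled libraries the same held for 8 channel genes (9.88%) and 8.86% of all genes. By more than 4-fold the WT libraries differed in 13 channel genes (16.0%, against 3.79% of all genes) and the KO-labelled libraries in 1 (1.23%, against 1.65%), the two-pore channel Kcnk5. Kcnk5 was at 1.52, 1.14 and 1.45 CPM in the WT libraries, against 1.83, 1.44 and 0.235 CPM in the KO-labelled ones. Its value in KO 3 rests on 4 counts, just over the floor of 3. WT 1 was the lowest of the 6 libraries in 41 channel genes (50.6%, against 24.8% of all tested genes) and WT 2 the highest in 25 (30.9%, against 21.9%). Both held at once in 16 genes (19.8%, against 9.05%), of which 12 were voltage-gated pores, 3 inward rectifiers and 1 an accessory gene. No test was made of these shares, since genes of a library share their source.

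**Figure D3:**
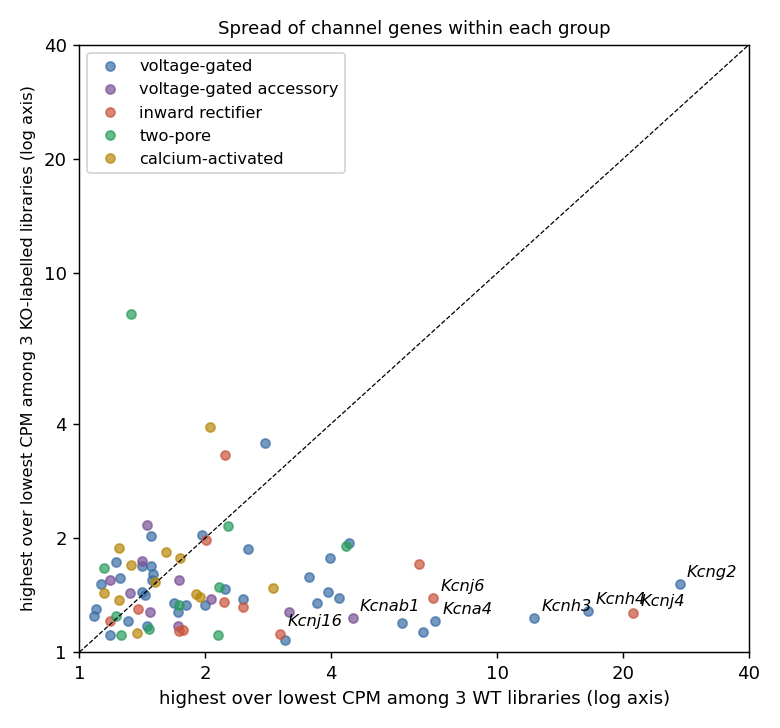
Highest over lowest CPM among the 3 WT libraries (x axis) and among the 3 KO-labelled libraries (y axis), both log axes, for the 81 channel genes tested; colours are classes and the dashed line marks equal spread. In 51 genes the WT libraries spread more widely, up to 27.3-fold in Kcng2 and 21.1-fold in Kcnj4. These are 63.0% of the channel genes, against 54.3% of all genes with at least 3 counts in every library.

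The genes named for this spread were chosen after their values were seen. Kcnj4 was at 9.91, 209 and 105 CPM in WT 1 to 3 and at 171, 143 and 135 CPM in KO 1 to 3, with a log2 fold change of 0.47 (SE 0.87). Kcnh4, a pore of the ether-a-go-go family, was at 3.84, 63.4 and 20.3 CPM in the WT libraries, against 29.2, 37.5 and 36.1 CPM in the KO-labelled ones. Kcnh3, of the same family, was at 11.0, 135 and 83.9 CPM in the WT libraries, against 114, 112 and 93.1 CPM in the KO-labelled ones. In all of these WT 1 was lowest, WT 3 intermediate and WT 2 highest, and the KO-labelled libraries lay between WT 1 and WT 2. The A-type pore Kcna4, at 11.7, 83.0 and 33.6 CPM in the WT libraries, against 37.9 to 45.7 CPM in the KO-labelled ones, followed the same order. The summed level of striatal projection neuron markers given above also ran from WT 1 over WT 3 to WT 2, with the KO-labelled libraries between. Drd1 was at 10.2, 274 and 81.9 CPM in the WT libraries, against 117, 129 and 152 CPM in the KO-labelled ones. Isl1 of the same list did not follow this order. It was at 18.6, 17.35 and 18.4 CPM in the WT libraries, against 11.0, 17.2 and 18.85 CPM in the KO-labelled ones.

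WT 2 was the lowest library in 15 of the 81 channel genes, a share (18.5%) below that of all tested genes (23.6%), and these include genes with little spread such as Kcng1. Kcng2, a silent pore subunit, was at 16.4, 0.600 and 12.4 CPM in WT 1 to 3 and at 12.9, 14.1 and 9.34 CPM in KO 1 to 3. Kcnj6, a G protein-gated rectifier, was at 13.9, 1.98 and 13.5 CPM in the WT libraries, against 9.72, 7.31 and 6.99 CPM in the KO-labelled ones. For both, WT 2 alone was far below the rest. The mean log2 CPM of 11 cortical and septal excitatory neuron markers was 4.57, 3.95 and 6.22 over the WT libraries, against 6.59, 5.10 and 4.19 over the KO-labelled ones. It was lowest in WT 2 but nearly as low in KO 3 and WT 1, whereas Kcng2 and Kcnj6 were highest in WT 1. The summed level of these markers was lowest in WT 1 instead, at 2209.7, 2626.1 and 3790.3 CPM over the WT libraries. The part of these neurons in the levels of Kcng2 and Kcnj6 was not tested.

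**Figure D4:**
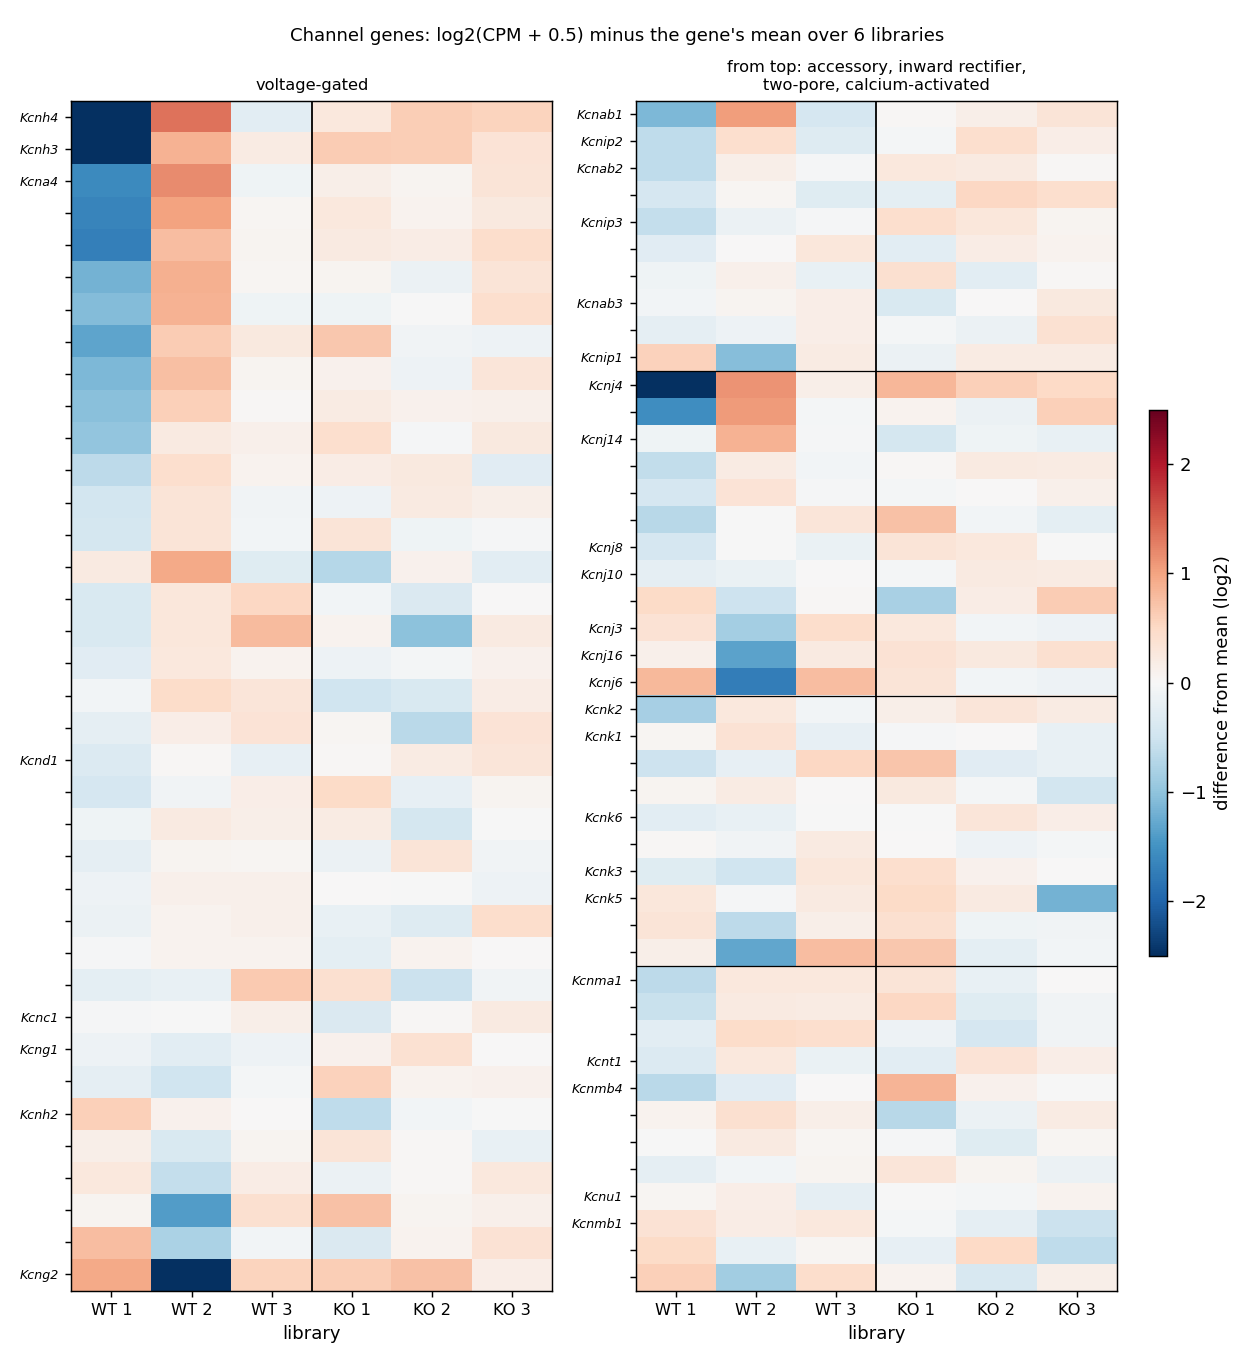
Log2(CPM + 0.5) of each tested channel gene in each library minus the gene's mean over the 6 libraries (colour), with voltage-gated pores on the left and the other classes on the right, sorted within a class by WT 2 over WT 1, with names for genes described in the text. Colours saturate at the ends of the scale, and the strongest ones sit in WT 1 (Kcnh4, Kcnh3, Kcnj4) and WT 2 (Kcng2), while the KO-labelled columns are paler.

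Summed over a class, the level was highest in WT 2 or in KO 1, depending on the class. The 40 voltage-gated pores summed to 330, 512 and 435 FPKM in WT 1 to 3 and to 433, 434 and 456 FPKM in KO 1 to 3. The accessory genes summed to 252, 419 and 317 FPKM in the WT libraries, against 360, 417 and 391 FPKM in the KO-labelled ones, of which 70.3% was in 3 genes. The 14 inward rectifiers summed to 115, 185 and 171 FPKM in the WT libraries, against 191, 189 and 186 FPKM in the KO-labelled ones, and all KO-labelled sums of this class lay above the WT sums. WT 2 and KO 3 were nearly level, at 184.9 and 185.5 FPKM. The sum leaves out Kcnj13, an inward rectifier by symbol that the selection set aside. Kcnj13 was at 47.4, 40.4 and 10.05 FPKM in WT 1 to 3, against 0.17, 1.24 and 0.31 FPKM in KO 1 to 3. With Kcnj13 added, the WT 2 sum would not lie below the KO-labelled sums. Of the inward rectifier sum of the 14 genes 71.9% was in 3 genes, of the two-pore sum 83.4% and of the calcium-activated sum 69.3%. Two-pore channels summed to 85.4, 103 and 88.5 FPKM in the WT libraries, against 96.4, 96.8 and 86.5 FPKM in the KO-labelled ones, and the calcium-activated family to 74.4, 98.2 and 101 FPKM in the WT libraries, against 121, 99.2 and 97.6 FPKM in the KO-labelled ones. WT 1 had the lowest sum of the 6 libraries in each of the 5 classes, though among two-pore channels KO 3 was nearly level with it.

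**Figure D5:**
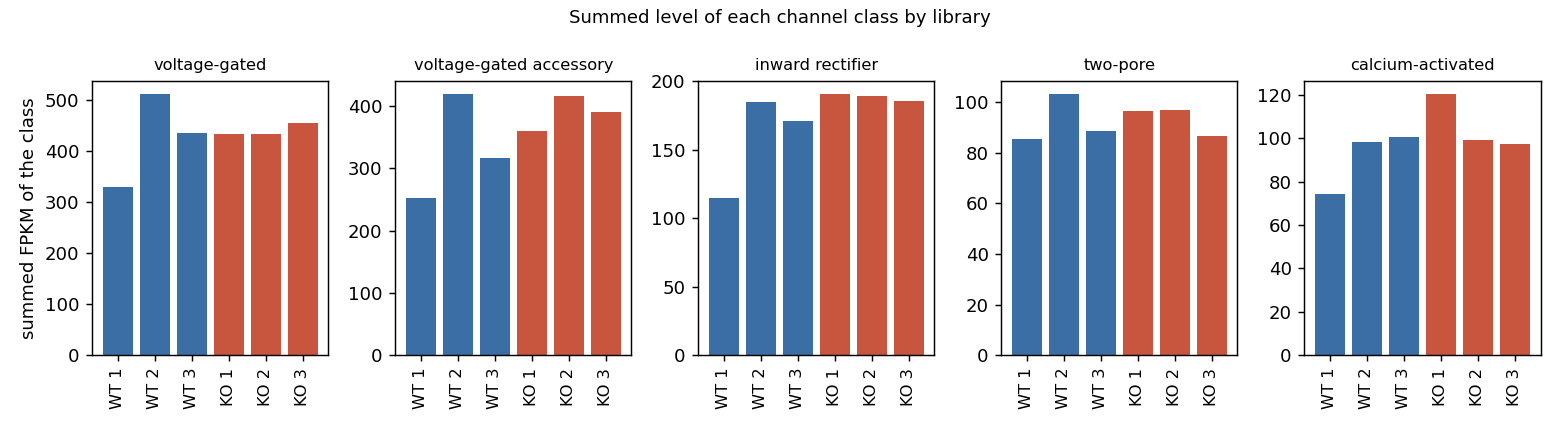
Summed FPKM of each channel class (y axis, from 0, own scale in each panel) in the 3 WT (blue) and 3 KO-labelled (red) libraries. WT 1 has the lowest bar in each panel. The inward rectifier bars of KO 1 to 3, at 191, 189 and 186 FPKM, exceed the WT bars, with WT 2 (184.9 FPKM) and KO 3 (185.5 FPKM) nearly level. Kcne2 and Kcnj13 are left out of the bars, and the order of the inward rectifier bars holds only without Kcnj13.

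Promoter windows, from 250 bases before to 50 after an annotated start, were read from RefSeq for assembly GRCm38.p6, the same build as the mm10 named in the submitters' processing notes. They were found for 66 of the 91 genes, with 90 windows in all, and their median GC content was 58.3% against 52.7% over all 32851 windows. Of the channel windows 31.1% held CCAAT on either strand (37.4% of all windows), 4.44% held TATAAA on either strand (13.6%), and 0 of 90 held the palindrome TGACGTCA (1.79%). These are matches of letters and not sites. CCAAT is the box that nuclear factor Y binds, TATAAA a core promoter element and TGACGTCA the cyclic AMP response element. Windows are shown for Kcnip3 and Kcnj16, both higher in each KO-labelled library, and for Kcnj4, the abundant inward rectifier with the widest WT spread, with matches in capitals. Kcnip3 has 3 windows, of which chr2:127522045-127522344 and chr2:127482450-127482749, both on the minus strand, hold a match. Kcnj16 has 4, of which chr11:111019335-111019634 and chr11:111023610-111023909, on the plus strand, hold one. Kcnj4 has 1, chr15:79505192-79505491 on the minus strand, with no match and a GC content of 76.0%.
Kcnip3 upstream start: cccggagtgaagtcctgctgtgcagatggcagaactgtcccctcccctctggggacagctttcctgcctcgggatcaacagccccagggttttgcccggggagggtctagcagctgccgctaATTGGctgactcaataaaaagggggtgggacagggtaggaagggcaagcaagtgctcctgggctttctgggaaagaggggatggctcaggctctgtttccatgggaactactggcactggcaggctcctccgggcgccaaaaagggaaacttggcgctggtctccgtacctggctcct
Kcnip3 downstream start: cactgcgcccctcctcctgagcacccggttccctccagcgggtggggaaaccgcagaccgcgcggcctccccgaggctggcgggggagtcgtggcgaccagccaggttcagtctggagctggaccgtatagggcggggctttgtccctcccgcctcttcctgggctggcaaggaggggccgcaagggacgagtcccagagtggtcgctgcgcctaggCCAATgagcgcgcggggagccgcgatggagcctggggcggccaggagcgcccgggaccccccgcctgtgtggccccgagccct
Kcnj16 window with TATAAA: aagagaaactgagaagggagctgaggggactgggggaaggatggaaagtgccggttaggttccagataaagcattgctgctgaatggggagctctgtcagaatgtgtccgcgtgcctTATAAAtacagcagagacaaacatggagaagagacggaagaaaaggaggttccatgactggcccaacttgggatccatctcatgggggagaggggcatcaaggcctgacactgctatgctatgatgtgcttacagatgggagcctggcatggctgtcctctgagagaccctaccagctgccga
Kcnj16 window with CCAAT: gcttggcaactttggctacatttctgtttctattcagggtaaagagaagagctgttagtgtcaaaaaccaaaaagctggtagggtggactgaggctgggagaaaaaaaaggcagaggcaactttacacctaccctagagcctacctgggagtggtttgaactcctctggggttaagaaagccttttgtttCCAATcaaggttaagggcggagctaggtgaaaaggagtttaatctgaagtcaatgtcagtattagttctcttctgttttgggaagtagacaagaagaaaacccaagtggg
Kcnj4: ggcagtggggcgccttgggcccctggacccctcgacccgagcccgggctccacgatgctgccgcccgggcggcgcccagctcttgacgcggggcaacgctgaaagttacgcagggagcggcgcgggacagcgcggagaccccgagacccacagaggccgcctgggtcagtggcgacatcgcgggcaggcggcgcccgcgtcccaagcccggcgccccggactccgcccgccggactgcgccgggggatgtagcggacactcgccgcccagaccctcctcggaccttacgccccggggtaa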

How the data were processed

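Bulk RNA-seq of the SVZ was available for 3 WT and 3 KO libraries, grouped and numbered by their titles. The authors deposited 1 table with estimated counts and FPKM for 61481 RefSeq transcripts; the columns of counts are named in the file headers, and the FPKM unit was judged from the deposited values. Genome build mm10 and limma 3.40.6 appear in the submitters' processing notes; no source used here names the aligner, quantifier, annotation or strand setting. Counts were summed per NCBI gene number and rounded, and 18489 of 18614 genes had a symbol in the RefSeq table of GRCm38.p6; genes without one held 0.104% to 0.140% of a library's counts.

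The test was the robust quasi-likelihood F test of edgeR 4.0.16 under R 4.3.3 (filterByExpr with a minimum count of 10, TMM scaling, group as the 1 term, two-sided), with Benjamini-Hochberg adjustment over 15126 genes and a threshold of 0.05. Standard errors are the log2 fold change over the square root of F. Levels are TMM-scaled CPM, and differences are KO-labelled minus WT. The procedure was tested on simulated data. The 15 alternatives were DESeq2 1.42.0, limma-voom (limma 3.58.1), other scalings and filters, no robust option, the replicate block, each library left out, and KO 1 alone. The genes named were those with the smallest p per class and direction (up to 4 with an unadjusted p under 0.05, otherwise 1) and the 3 with the highest FPKM per class; others are marked, and a few genes that the rule selects are not reported here. The genes and lists were chosen with earlier results of these data known.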

Additional observations from a re-analysis of the deposited data

How the results depend on the processing

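No potassium channel gene passed the threshold in any of the 15 alternatives (5 had an unadjusted p under 0.05 in edgeR; between 2 and 12 did so in the alternatives). Of all genes, DESeq2 called 311 against 0 in edgeR, and with single libraries left out edgeR called between 0 and 137, the latter without WT 3. Replicate numbers gave no sign of pairing: the correlations of same-numbered libraries' deviations were -0.16, -0.067 and -0.037, and WT 1 correlated best with KO 2 (0.18). Deviations from a mean of 3 libraries are tied to each other, so these values cannot exclude pairing. With the replicate block 0 channel genes and 0 genes in all were called, and 2 channel genes had an unadjusted p under 0.05. With single libraries left out the median log2 fold change ranged from -0.18 (without WT 1) to 0.21 for voltage-gated pores, from 0.11 to 0.42 for accessory genes, from 0.074 to 0.24 for inward rectifiers (0.058 with no filter), from -0.17 to 0.30 for two-pore channels, and from -0.17 to 0.014 for the calcium-activated family, whose median was 0.057 with the filter of 5 CPM. With KO 1 alone against WT the medians were -0.0072 for accessory genes and 0.36 for two-pore channels. Of the values of named genes under the alternatives, 313 kept their direction and side of the threshold and 16 changed sign. With single libraries left out Kcnc1 ranged from -0.20 to 0.088, Kcnab3 from -0.24 to 0.073, Kcnab1 from -0.32 to 0.89, Kcnj4 from -0.072 to 1.38, Kcnj3 from -0.38 to 0.16 and Kcnma1 from -0.21 to 0.18. With KO 1 alone Kcnab1 was at -0.092, Kcnj3 at 0.18 and Kcnt1 at -0.20, and Kcnj3 was at 0.041 with limma-voom and 0.036 under the replicate block. The causes were not tested. Counting depth limits genes under about 10 counts, such as Kcnv2.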
